A study of Mus musculus with 12 samples.

Results

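The Fc gamma receptors are the cell surface receptors that bind the constant part of immunoglobulin G (IgG), described here in the spleens of mice that lack the IL-1 receptor antagonist. They were taken as every probe set (a group of short probes for 1 transcript on an Affymetrix array) that the array's annotation pairs with a single symbol out of Fcgr1, Fcgr3, Fcgr4, Fcer1g, Fcgr2b and Fcgrt. This gave 11 probe sets of 6 genes, out of 45037 on the array: 5 for Fcgr2b, 2 for Fcgr1 and 1 for each of the other genes. Whole spleen RNA of 12 BALB/c mice was measured, 1 mouse per array, in 4 groups of 3: mice deficient in Il1rn (ko) at 4 months, wild-type mice (wt) at 4 months, ko mice at 1 month and wt mice at 1 month. All animals were on the BALB/c background and untreated as far as the labels say, which give neither the deleted exons nor the sex. Il1rn encodes a soluble antagonist that keeps IL-1 from its receptor, BALB/c mice without it develop arthritis, and the study's title asks for arthritis genes that belong to a phase of the disease.

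Fc gamma receptors link antibody to cell response. The activating receptors of the mouse, encoded by Fcgr1, Fcgr3 and Fcgr4, bind IgG in immune complexes and signal through the immunoreceptor tyrosine-based activation motif (ITAM) of the common gamma chain, encoded by Fcer1g, which drives phagocytosis, cytokine release and killing by macrophages, neutrophils and, for some of them, NK cells. The inhibitory receptor, encoded by Fcgr2b, carries an inhibitory motif (ITIM) in its own tail, is the Fc gamma receptor of B cells, and is also made by macrophages, where it opposes the activating receptors. Fcgrt encodes the heavy chain of the neonatal Fc receptor, which pairs with beta-2-microglobulin inside cells and returns IgG and albumin to the circulation instead of passing them to the lysosome.

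Fcgr2b, Fcgr4, Fcgr3 and Fcer1g lie in this order within 1 stretch of mouse chromosome 1, while Fcgr1 is on chromosome 3 and Fcgrt on chromosome 7 (RefSeq, GRCm38.p6). The promoter windows of the 3 activating receptors and of the inhibitory one are shown here. These genes were called higher with age in ko spleens, as were Fcer1g and Fcgrt, and Fcgr1 was not called with age in wt. Each window runs from 250 bases before the RefSeq start site to 50 bases after it, 5′ to 3′ on the gene's own strand. Capitals mark matches on either strand to GAGGAA, the core bound by the myeloid transcription factor PU.1, which reads TTCCTC on the other strand, and to TTCNNNGAA, the palindrome of interferon-gamma activated sites.
Fcgr1, chr3:96293920-96294219, minus strand: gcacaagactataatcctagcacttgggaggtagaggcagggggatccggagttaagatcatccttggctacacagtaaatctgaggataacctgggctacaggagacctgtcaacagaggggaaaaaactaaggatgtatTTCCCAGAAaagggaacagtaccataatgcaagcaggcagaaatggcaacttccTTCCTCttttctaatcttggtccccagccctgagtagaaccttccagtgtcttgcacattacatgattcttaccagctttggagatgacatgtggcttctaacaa
Fcgr3, chr1:171059354-171059653, minus strand: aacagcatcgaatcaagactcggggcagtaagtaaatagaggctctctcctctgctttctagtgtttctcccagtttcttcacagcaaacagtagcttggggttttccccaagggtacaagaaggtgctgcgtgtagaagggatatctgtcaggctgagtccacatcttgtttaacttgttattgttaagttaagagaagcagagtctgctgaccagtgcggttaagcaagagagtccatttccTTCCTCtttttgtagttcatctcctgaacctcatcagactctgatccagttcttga
Fcgr4, chr1:171018676-171018975, plus strand: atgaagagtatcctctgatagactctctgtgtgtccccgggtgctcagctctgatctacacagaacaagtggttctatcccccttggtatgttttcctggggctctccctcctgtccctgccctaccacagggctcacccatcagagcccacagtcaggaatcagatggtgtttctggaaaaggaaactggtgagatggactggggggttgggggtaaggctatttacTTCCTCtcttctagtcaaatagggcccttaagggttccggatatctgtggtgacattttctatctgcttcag
Fcgr2b, chr1:170976022-170976321, minus strand: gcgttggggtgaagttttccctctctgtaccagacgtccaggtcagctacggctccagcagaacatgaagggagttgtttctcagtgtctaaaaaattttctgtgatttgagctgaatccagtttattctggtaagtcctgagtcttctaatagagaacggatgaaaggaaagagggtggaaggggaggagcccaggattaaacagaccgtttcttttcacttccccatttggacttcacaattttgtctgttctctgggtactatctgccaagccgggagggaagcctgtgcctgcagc
The window of each activating receptor held 1 match to GAGGAA, at -55 bases from the start site in Fcgr1, -6 in Fcgr3 and -22 in Fcgr4, and the window of Fcgr1 also held the single match to TTCNNNGAA. The 2 motifs did not overlap there. A second RefSeq start of Fcgr3 gave the same match at -15. The windows of Fcgr2b, Fcer1g and Fcgrt held neither sequence. GAGGAA was present in 28.3% of the 32851 RefSeq mouse promoter windows of the same length, and TTCNNNGAA in 8.3%, against 4 and 1 of the 7 windows of these genes. The 2 windows of Fcgr3 overlap, and their shared match is counted in both. A match is a description of the letters in these windows.

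The arrays had a median signal of 112.9 to 147.5, and the share of probe sets at a scaled signal of 100 or more was 52.1% to 59.2%. Il1rn had 3 probe sets, and the mean of each was lower in ko at both ages. For 1451798_at it was 21.9 in ko and 209 in wt at 4 months, and 23.3 in ko and 142 in wt at 1 month. For 1425663_at it was 46.5 in ko and 143.5 in wt at 4 months, and 69.3 in ko and 121 in wt at 1 month, without overlap, while the genotypes overlapped in 1423017_a_at at both ages. By their highest signal, the arrays fell into a set of 6 at 33427 to 37921, called the low array set here, and a set of 6 at 51247 to 68987. The low set held all 3 ko arrays at 1 month, replicate 2 of ko at 4 months, and replicate 3 of both wt groups, so at 1 month genotype and array set largely coincide. The array of wt replicate 2 at 4 months carried pancreas transcripts, with a summed signal of 111360 for 6 pancreas genes, against at most 2532 on any other array. Values below are signals scaled to a trimmed mean of 500 per array, listed for replicates 1, 2 and 3 of a group. Log2 differences were taken from limma with standard errors (SE), and a probe set was called where p, adjusted over all 27041 probe sets tested, was under 0.05. Each group enters several comparisons, so these share samples. In whole tissue, more cells of a type and more RNA per cell cannot be told apart. Of the 11 probe sets, 10 passed the filter on low signal. The remaining one, 1447622_at of Fcgr2b, had signals of 1.3 to 58.9 and was not tested.

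The largest difference among the Fc gamma receptors was with age. All 6 genes were called higher at 4 months than at 1 month in ko spleens, by 1.61-fold for Fcer1g to 2.39-fold for Fcgr2b, and 3 of the 6, Fcgr2b, Fcgr3 and Fcgr4, were called higher in wt spleens. Over all 12326 genes, 15.6% were called higher with age in ko and 12.5% in wt. Between genotypes no Fc gamma receptor was called by limma at either age, where 2.5% of all genes were called higher in ko at 4 months and 0.365% at 1 month: at 4 months the mean of every gene was higher in ko, and at 1 month only those of Fcgr3 and Fcgr4 were.

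**Figure D1:**
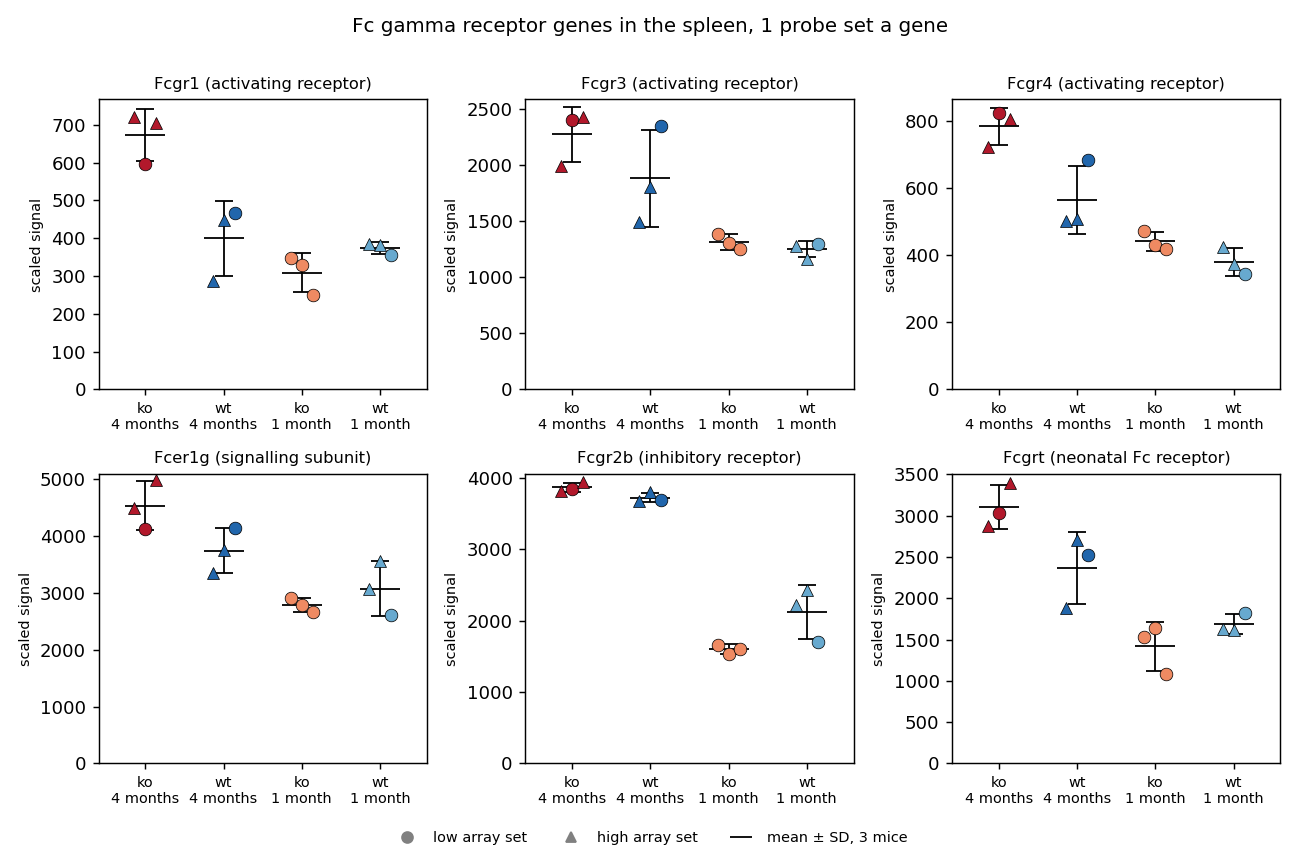
Scaled signal (linear axis from 0) of the 6 Fc gamma receptor genes, 1 probe set each, in the 4 groups; each point is 1 mouse, circles are arrays of the low set and triangles of the high set, and lines give the mean ± SD of 3 mice. The 4-month arrays of ko lie above the 1-month arrays of ko in every gene, while for Fcgr1 and Fcer1g the wt arrays of the 2 ages overlap.

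Among the activating receptors, Fcgr1 encodes the high-affinity receptor. Its first probe set, 1417876_at, had signals of 721, 595 and 705 in ko at 4 months, against 286, 448 and 467 in wt at 4 months, and of 347, 329 and 250.1 in ko at 1 month, against 385, 382 and 355 in wt at 1 month. The ko arrays at 4 months stood above the 9 others, and the ko arrays at 1 month below the wt arrays of that age without overlap. The group means fell in the order ko at 4 months (674 ± 68.5, SD, n = 3), wt at 4 months (400.4 ± 99.3), wt at 1 month (374 ± 16.7) and ko at 1 month (309 ± 51.5), and the 2 wt groups were closer than their spread. At 4 months against 1 month the gene was 2.08-fold higher in ko (log2 difference 1.06, SE 0.19, limma adjusted p = 0.00116). In wt the difference was 0.064 (SE 0.19, limma adjusted p = 0.846).

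The second Fcgr1 probe set, 1436625_at, gave the same order of means. Its signals were 271, 267 and 200.2 in ko at 4 months, 179, 142 and 187 in wt at 4 months, 118, 145 and 104 in ko at 1 month, and 178, 123 and 140.5 in wt at 1 month. It too was called higher with age in ko (0.85, SE 0.22, limma adjusted p = 0.012) and not in wt (0.17, SE 0.22, limma adjusted p = 0.626). The ko call was lost without ko replicate 3 at 1 month (limma adjusted p = 0.0545) or without ko replicate 1 at 4 months (limma adjusted p = 0.0588).

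Fcgr3 encodes a low-affinity activating receptor of macrophages, neutrophils and NK cells. Its signals were 1993, 2399 and 2431 in ko at 4 months, 1494, 1802 and 2349 in wt at 4 months, 1389, 1303 and 1249 in ko at 1 month, and 1283, 1167 and 1300.3 in wt at 1 month. Every 4-month array lay above every 1-month array, and the genotypes overlapped at both ages. With age the gene rose 1.71-fold in ko (0.77, SE 0.16, limma adjusted p = 0.00266) and 1.47-fold in wt (0.56, SE 0.16, limma adjusted p = 0.0204). The wt call was lost without wt replicate 2 at 1 month (limma adjusted p = 0.0594) or wt replicate 3 at 4 months (limma adjusted p = 0.0975).

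Fcgr4 encodes an activating receptor of monocytes, macrophages and neutrophils. It had signals of 721, 823 and 806 in ko at 4 months, 502, 508 and 682 in wt at 4 months, 473, 430.2 and 419 in ko at 1 month, and 424, 372 and 343 in wt at 1 month. The groups stood in the order ko at 4 months, wt at 4 months, ko at 1 month and wt at 1 month, and of the neighbours in this order only the 2 groups at 1 month overlapped. With age it rose 1.72-fold in ko (0.79, SE 0.16, limma adjusted p = 0.00267) and 1.44-fold in wt (0.52, SE 0.16, limma adjusted p = 0.0294). The wt call was lost without wt replicate 2 or 3 at 1 month or wt replicate 3 at 4 months (limma adjusted p = 0.06, 0.0718 and 0.129), and with quantile normalization (0.41, limma adjusted p = 0.0932).

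Fcer1g, the signalling chain that the 3 activating receptors share, had signals of 4496, 4125 and 4985 in ko at 4 months, 3346, 3754 and 4139 in wt at 4 months, 2921, 2789 and 2667 in ko at 1 month, and 3065, 3564 and 2606 in wt at 1 month. The ages did not overlap in ko and overlapped in wt. The gene rose 1.61-fold with age in ko (0.69, SE 0.14, limma adjusted p = 0.00271), and in wt the difference was 0.29 (SE 0.14, limma adjusted p = 0.165).

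The inhibitory receptor gene Fcgr2b had the lowest adjusted p of the 6 genes for age, in both genotypes. Its probe set 1435477_s_at, which stands for the gene, had signals of 3821, 3838 and 3942 in ko at 4 months, against 3681, 3799.6 and 3694 in wt at 4 months, and of 1666, 1533 and 1601 in ko at 1 month, against 2224, 2433 and 1706 in wt at 1 month. The 4-month arrays were close together in both genotypes, and at 1 month the ko arrays lay just below the lowest wt array. With age it rose 2.39-fold in ko (1.26, SE 0.14, limma adjusted p = 4.36e-05) and 1.76-fold in wt (0.82, SE 0.14, limma adjusted p = 0.000552).

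The 3 other tested Fcgr2b probe sets were also called higher with age in both genotypes. In ko the differences were 0.99 (SE 0.13) for 1435476_a_at, 1.19 (SE 0.19) for 1451941_a_at and 1.00 (SE 0.22) for 1455332_x_at. In wt they were 0.73 (SE 0.13), 0.93 (SE 0.19) and 1.02 (SE 0.22) in the same order, with limma adjusted p = 0.00105, 0.00281 and 0.00402. The 4 probe sets correlated over the 12 arrays with Pearson's r between 0.802 and 0.979, which is a description of arrays that share groups and processing. By Affymetrix naming, probes of an s or x set can match transcripts of other genes, and Fcgr2b, Fcgr3 and Fcgr4 are related in sequence, so some of the signal may be shared between them.

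Fcgrt, the neonatal Fc receptor chain, had signals of 2876, 3036 and 3394 in ko at 4 months, 1876, 2703 and 2528 in wt at 4 months, 1533, 1639 and 1085 in ko at 1 month, and 1633, 1610.3 and 1825 in wt at 1 month. No array of 1 month reached an array of 4 months. The gene rose 2.19-fold with age in ko (1.13, SE 0.17, limma adjusted p = 0.000355). In wt the difference of 0.47 (SE 0.17) was not called (limma adjusted p = 0.0631), but it was without wt replicate 1 at 4 months (0.62, limma adjusted p = 0.0225) or without ko replicate 3 at 1 month (limma adjusted p = 0.0398). B2m, its partner chain, rose with age in ko (0.45, limma adjusted p = 0.0403) and was not called in wt (0.22, limma adjusted p = 0.32).

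Counted over probe sets, 10 of the 10 tested were called higher with age in ko, where 13.6% of all tested probe sets were, and 6 of 10 in wt, where 11.8% were. The 4-month arrays lay above the 1-month arrays without overlap in 10 of 10 in ko, against 28.3% of all probe sets, and in 7 of 10 in wt, against 18.4%. The median log2 difference with age was 0.99 in ko and 0.54 in wt, while over all tested probe sets it was 0.10 in ko and 0.090 in wt. Within the low array set the median of the 10 was 0.958 in ko, from 1 array at 4 months against 3 at 1 month. In wt it was 0.881 from the single array of either age in the low set, and 0.44 from the 2 of either age in the high set. With the array set as a block the counts stayed at 10 and 6. With arrays centred on their medians they also did, while the calls over all probe sets in ko were 2013 higher and 3488 lower, against 3685 and 2502.

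**Figure D2:**
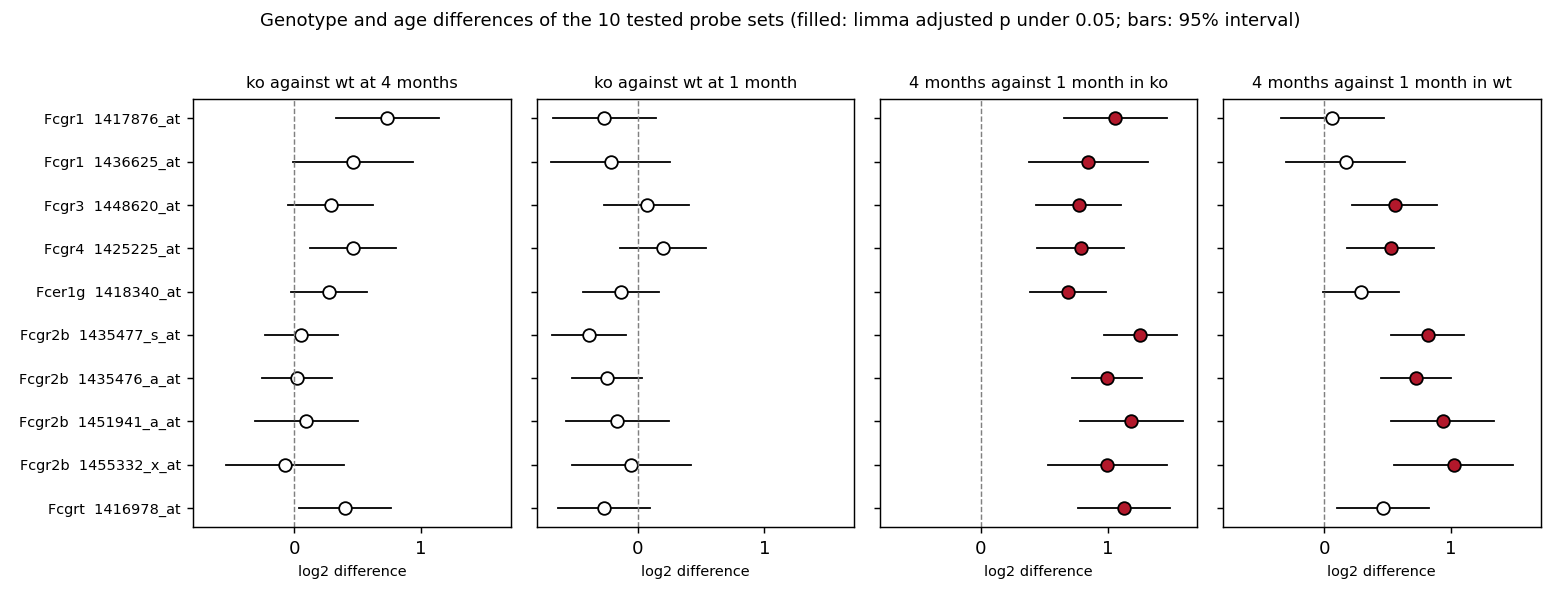
Log2 difference with its 95% confidence interval for each of the 10 tested Fc gamma receptor probe sets in 4 comparisons, from limma; filled points are called at an adjusted p under 0.05. All 10 are filled for 4 months against 1 month in ko and 6 in wt, and none is filled for ko against wt at 4 months or at 1 month.

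At 4 months no Fc gamma receptor probe set was called between ko and wt by limma (0 of 10), where 2.3% of all tested probe sets were called. An unadjusted p under 0.05 was reached by 3 of the 10. The share of all probe sets at an unadjusted p under 0.05 was not counted, here or below. Fcgr1 came closest to a call, 1.66-fold higher in ko (0.73, SE 0.19, limma adjusted p = 0.0589). It was called without wt replicate 2 at 4 months, the array with pancreas transcripts (0.82, limma adjusted p = 0.0463), where 991 of all tested probe sets were called, against 621 with all arrays. Fcgr4 was higher by 0.46 (SE 0.16, limma adjusted p = 0.159), Fcgrt by 0.40 (SE 0.17, limma adjusted p = 0.265), Fcgr3 by 0.29 (SE 0.16, limma adjusted p = 0.399) and Fcer1g by 0.27 (SE 0.14, limma adjusted p = 0.365). Fcgr2b differed by 0.054 (limma adjusted p = 0.894), with a 95% confidence interval of -0.24 to 0.34. In 5 probe sets, those of Fcgr1, Fcgr4 and Fcgrt and 1435477_s_at of Fcgr2b, the ko arrays were above the wt arrays without overlap, a pattern held by 10.9% of all probe sets tested. The median of the 10 was 0.28, against -0.0097 over all tested probe sets, and it was 0.0421 for the single array of either genotype in the low array set and 0.416 for the 2 of either genotype in the high set.

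At 1 month again none of the 10 was called by limma, where 0.444% of all tested probe sets were called. An unadjusted p under 0.05 was reached by 1 of the 10, and 8 of the 10 log2 differences were below 0. Fcgr2b was at -0.38 (SE 0.14, limma adjusted p = 0.198) and Fcgr1 at -0.26 (SE 0.19), while Fcgr4 was at 0.20 and Fcgr3 at 0.070. Without wt replicate 3 at 1 month, the only wt array of that age in the low array set, Fcgr2b was called lower in ko (-0.53, limma adjusted p = 0.0272), but 1590 of all tested probe sets, 752 of them lower, were then called as well, against 120 with all arrays and 36 without ko replicate 3 at 1 month. In 3 probe sets, 1417876_at of Fcgr1 and 1435477_s_at and 1435476_a_at of Fcgr2b, each ko array had a lower signal than each wt array, which held for 11.9% of all probe sets tested. The median of the 10 was -0.19, against -0.035 over all, and -0.137 within the low set, 3 ko arrays against 1 wt array. With arrays centred on their medians it was -0.0294, against 0.122 over all, with 4 of the 10 above 0, and the calls over all probe sets were 67 higher and 18 lower, against 55 and 65.

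Averaged over both ages, the genotype difference was not called for any of the 10 by limma either, where 5.39% of all tested probe sets were called. The 1 probe set at an unadjusted p under 0.05 was that of Fcgr4, higher in ko by 0.33 (SE 0.11, limma adjusted p = 0.0963). Fcgr4 was called with arrays centred on their medians (0.42, limma adjusted p = 0.0467). The calls over all probe sets were then 1143 higher and 257 lower, against 766 and 691. The change of the genotype difference between 4 months and 1 month was not called in any of the 10, where 0.0481% of all tested probe sets were called. In 4 of the 10 its unadjusted p was under 0.05. The change was 0.99 (SE 0.27, limma adjusted p = 0.28) for Fcgr1, 0.66 (SE 0.24, limma adjusted p = 0.453) for Fcgrt and 0.44 (SE 0.19, limma adjusted p = 0.541) for Fcgr2b. So the larger age difference of Fcgr1 in ko than in wt was not past the threshold over all probe sets.

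To set the activating receptors against the inhibitory one, the log2 signal of Fcgr2b (1435477_s_at) was subtracted from that of each activating receptor on the same array. Only differences of this ratio between groups are read, since levels of different probe sets are not comparable. For Fcgr4 the ratio was -2.36, -2.18 and -2.25 in ko at 4 months, against -2.80, -2.83 and -2.38 in wt at 4 months, and -1.75, -1.76 and -1.86 in ko at 1 month, against -2.31, -2.61 and -2.21 in wt at 1 month. At both ages every ko array had the higher ratio of Fcgr4 to Fcgr2b. Over both ages it was 1.41-fold higher in ko (0.50, exact permutation of genotype within age, 2-sided p = 0.005, the smallest it can give, 0.015 after Benjamini-Hochberg adjustment over the 3 ratios tested).

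The ratios of the other activating receptors to Fcgr2b overlapped between genotypes at 1 age. For Fcgr1 the ratio averaged -2.47 ± 0.14 in ko and -3.15 ± 0.35 in wt at 4 months, and -2.27 ± 0.23 in ko and -2.39 ± 0.21 in wt at 1 month (SD, n = 3 each). For Fcgr3 it averaged -0.76 ± 0.14 in ko and -0.997 ± 0.32 in wt at 4 months, and -0.28 ± 0.063 in ko and -0.73 ± 0.33 in wt at 1 month. Over both ages the ratio was higher in ko by 0.40 for Fcgr1 (exact permutation p = 0.03, adjusted 0.04) and by 0.34 for Fcgr3 (exact permutation p = 0.04, adjusted 0.04). The Fcgr1 ratio had an exact permutation p of 0.055 to 0.06 without ko replicate 1 or 3 or wt replicate 1 at 4 months, or without ko replicate 1 or 2 or wt replicate 2 at 1 month. The Fcgr3 ratio kept a p under 0.05 only without ko replicate 1 or wt replicate 3 at 4 months or wt replicate 3 at 1 month, and reached 0.1 without wt replicate 1 at 4 months. At a single age, 3 arrays against 3 cannot give a p under 0.1. That value was reached by Fcgr1 and Fcgr4 at 4 months (0.68 and 0.41) and by Fcgr3 and Fcgr4 at 1 month (0.45 and 0.59).

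The same test of the ratio to Fcgr2b was run on the 27037 tested probe sets that are not of Fcgr2b. It gave a higher ratio in ko with an exact permutation p under 0.05 for 14.2% of them and with the smallest possible p for 3.74%, and a lower ratio under 0.05 for 2.52%. The median difference of these ratios was 0.145, above 0. Fcgr4 stood at percentile 88.7 of these differences, Fcgr1 at 81.9 and Fcgr3 at 76.7. In each wt group the array of the low set had the highest of its 3 ratios for all 3 receptors. With the array set as a block the differences were 0.41 for Fcgr4, 0.35 for Fcgr1 and 0.21 for Fcgr3 (exact permutation p = 0.0208, 0.0833 and 0.0417). The smallest p that this blocked test can give is 0.0208. Within the low array set the differences were 0.31 for Fcgr4, 0.086 for Fcgr1 and 0.039 for Fcgr3. That set holds a single wt array of each age, too few for a permutation p under 0.05. With 1455332_x_at as the Fcgr2b probe set none of the 3 had an exact permutation p under 0.05 (0.39, p = 0.09 for Fcgr4). At 4 months against 1 month the mean ratio differed by -0.20 for Fcgr1, -0.48 for Fcgr3 and -0.47 for Fcgr4 in ko, and by -0.75 for Fcgr1, -0.26 for Fcgr3 and -0.29 for Fcgr4 in wt, with exact permutation p between 0.1 and 0.4.

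**Figure D3:**
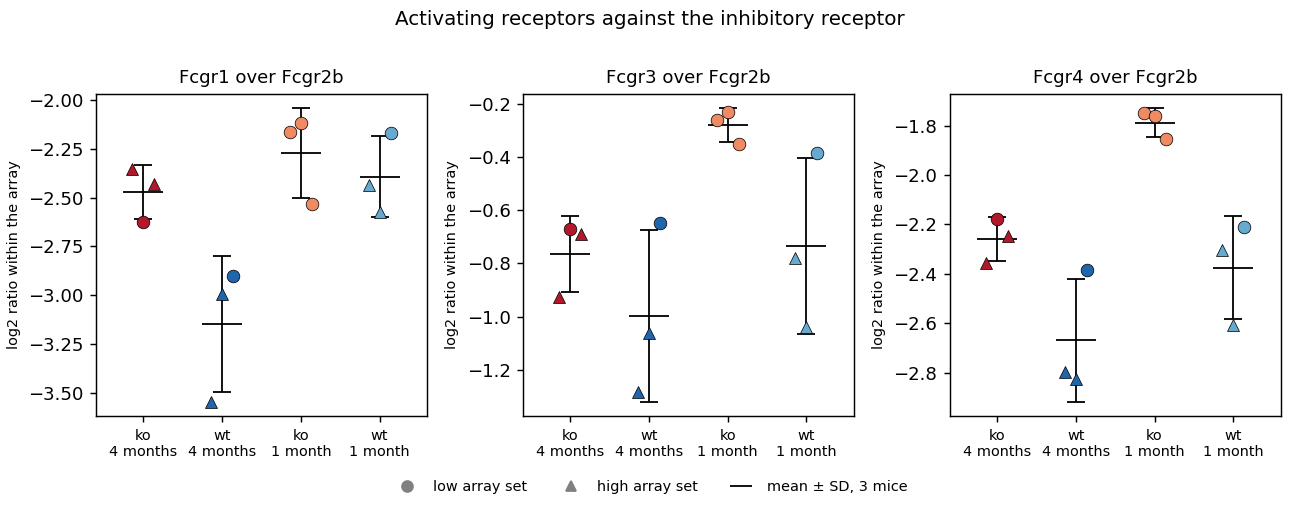
Log2 ratio of each activating receptor to Fcgr2b in the 4 groups; each point is 1 mouse, circles are arrays of the low set and triangles of the high set, and lines give the mean ± SD of 3 mice. For Fcgr4 the 3 ko arrays lie above the 3 wt arrays at both ages, and ratios at 4 months are on average lower than at 1 month.

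Over the 12 arrays Fcgr3 and Fcgr4 followed each other closely, with Pearson's r of 0.953, and 0.805 after group means were removed. Fcgr2b correlated with Fcer1g at 0.897 (0.737 after removing group means) and with Fcgr3 at 0.81 (-0.116 after removing them). Fcgr1 and Fcgrt had an r of 0.901 (0.794 after removing group means). These 12 arrays share groups and processing, and the values are descriptions without a test.

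Among 12325 other genes, those whose pattern over the 12 arrays was most like that of Fcgr1 by Pearson's r were Ccl24 (0.948), Fbxo6 (0.936) and Metrnl (0.915). For Fcgr3 they were Ptpn22 (0.981), Clec4a3 (0.960) and Fcgr4 (0.953), and for Fcgr4 they were Lair1 (0.954), Fcgr3 (0.953) and Per2 (0.946). Xbp1 (0.983), Hfe (0.941) and Ccl24 (0.938) were nearest to Fcer1g. Lpin1 (0.978), Calhm2 (0.978) and Slc15a2 (0.977) were nearest to Fcgr2b, and Tspan4 (0.962), Treml4 (0.961) and Pycard (0.960) to Fcgrt.

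The genes around the receptors also differed mostly with age. Over all genes, 15.6% were called higher with age in ko and 12.5% in wt, and 11.5% were called lower in wt. Of 8 tested relatives of the Fc receptors, 5 were called higher with age in ko and 4 higher and 1 lower in wt, with medians of 0.56 and 0.366. Of 27 signalling genes below the activating receptors, 13 were called higher in ko and 17 in wt, among them the kinase gene Fyn (0.90 in ko and 0.77 in wt) and Plcg2, a phospholipase (0.65 in ko and 0.77 in wt). Of 14 genes of inhibitory signalling, 4 were called higher in ko and 6 in wt, among them Inpp5d, the inositol phosphatase recruited by the inhibitory receptor (0.50 in ko and 0.64 in wt). Other receptors with an ITIM were called higher with age in 10 of 13 in ko and 8 of 13 in wt, such as Pirb (1.23 in ko and 1.08 in wt) and Cd22 (1.17 in ko and 0.73 in wt). Genes of ITAM adaptors and their partners were higher in 9 of 12 in ko and 6 of 12 in wt, with Tyrobp, an adaptor of myeloid and NK cells, at 0.67 in ko and 0.50 in wt.

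Over both ages, the genotypes differed in 3 of 13 other ITIM receptor genes, 2 of 12 ITAM adaptor and partner genes, 2 of 8 relatives of the Fc receptors, 1 of 27 activating and 1 of 14 inhibitory signalling genes, where 3.88% of all genes were called higher in ko and 2.44% lower. Ighg3 was the only IgG heavy chain gene with a probe set of 1 symbol here, and IgG protein was not measured. Its signal was 8217 ± 3684 in ko and 1564 ± 175 in wt at 4 months, and 416 ± 41.0 in ko and 460.0 ± 121 in wt at 1 month (SD, n = 3 each). It was higher in ko by 2.28 at 4 months (SE 0.25, limma adjusted p = 0.000115), and its genotype difference was larger at 4 months than at 1 month by 2.39 (SE 0.35, limma adjusted p = 0.0143). Sos1, a guanine exchange factor for Ras, was lower in ko at 4 months (-0.74, SE 0.17, limma adjusted p = 0.0274). At 1 month Itgam, the integrin chain of complement receptor 3, was higher (1.26, SE 0.25, limma adjusted p = 0.039) and Clec4n, the lectin receptor dectin-2 that signals through Fcer1g, was lower (-0.83, SE 0.17, limma adjusted p = 0.0403).

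Averaged over both ages, the ITIM receptor genes Clec4a2 (0.49, SE 0.12, limma adjusted p = 0.0339) and Pirb (0.41, SE 0.11, limma adjusted p = 0.0374) were higher in ko. Cd72, an ITIM receptor of B cells, was lower (-0.48, SE 0.11, limma adjusted p = 0.0205). Fcrla, an Fc receptor-like protein of B cells (-0.72, SE 0.13, limma adjusted p = 0.00816), and Fcmr, the receptor for IgM (-0.34, SE 0.094, limma adjusted p = 0.0458), were lower as well. Malt1, which encodes a paracaspase (-0.52, SE 0.14, limma adjusted p = 0.0392), and the ubiquitin ligase gene Cblb (-0.50, SE 0.13, limma adjusted p = 0.0388) were also lower in ko.

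Markers of cells that carry Fc gamma receptors moved with age too. The share of all genes called higher with age was 15.6% in ko and 12.5% in wt. All 11 genes of the red pulp macrophage list were called higher at 4 months in ko and 9 of 11 in wt (medians 1.14 and 0.679), and their summed signal was 78629 to 84071 in ko and 66159 to 69317 in wt at 4 months, and 35568 to 40729 in ko and 42526 to 44278 in wt at 1 month. Of 13 monocyte and macrophage genes, 9 were called higher in ko and 6 in wt, with sums of 70095 to 80095 in ko and 71257 to 82580 in wt at 4 months, and 44698 to 51395 in ko and 53953 to 71992 in wt at 1 month. B cell genes were higher in 9 of 11 in ko and 10 of 11 in wt, with sums of 55244 to 68275 in ko and 67897 to 78570 in wt at 4 months, and 31088 to 35395 in ko and 43472 to 45640 in wt at 1 month. By summed signal, the order of the 4 groups in the red pulp list was that of the means of Fcgr1, Fcer1g, Fcgr2b and Fcgrt. Not every gene of the list kept it: Hmox1 was at 3811 in ko and 3466 in wt at 1 month. The T cell list, the list of other Fc receptors, the list of ITAM adaptors and partners, the pancreas list and Ighg3 had the same order by median sum.

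Neutrophil precursor genes went the other way with age. All 11 were called lower at 4 months in both genotypes (medians -1.97 in ko and -2.52 in wt), where 10.9% of all genes were called lower in ko and 11.5% in wt, and all 11 were higher in ko than in wt at both ages, with sums of 20843 to 29386 in ko and 2154.7 to 4860.5 in wt at 4 months, and 70194 to 100500 in ko and 16118 to 23443 in wt at 1 month. Between genotypes, 2.5% of all genes were called higher in ko at 4 months and 0.365% at 1 month. Of the 11 red pulp genes, 2 were called higher in ko at 4 months, Cd5l (0.60, limma adjusted p = 0.0419) and Slc11a1 (0.50, limma adjusted p = 0.0453). Of the 11 mature neutrophil genes, 8 were called higher in ko at 4 months and 7 at 1 month (medians 1.48 and 1). Over both ages 4 of 11 B cell genes were called lower in ko, where 2.44% of all genes were. Of 13 monocyte and macrophage genes, 0 were called at 4 months and 1 was called higher in ko at 1 month. How far the share of these cells bears on the Fc gamma receptor values was not tested.

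With age, T cell genes were called higher in 8 of 8 in ko and 4 of 8 in wt, NK cell genes in 5 of 8 in both, dendritic cell genes in 7 of 8 in ko and 4 of 8 in wt, and plasma cell genes in 4 of 6 in ko and 3 of 6 in wt. The shares of all genes called with age were 15.6% higher and 10.9% lower in ko, and 12.5% higher and 11.5% lower in wt. Marginal zone macrophage genes were called higher in 4 of 4 in ko and 2 of 4 in wt. Of 8 mast cell and basophil genes, 4 were called higher and 1 lower in ko and 0 in wt by limma (0 also at an unadjusted p under 0.05). The 11 genes of mature neutrophils gave 2 calls higher and 6 lower in ko, and 2 higher and 5 lower in wt. Erythroid genes were called lower in 3 of 6 in ko and 6 of 6 in wt, and megakaryocyte genes in 0 of 8 in ko by limma (0 also at an unadjusted p under 0.05) and 5 of 8 in wt. None of 4 tested pancreas genes was called by limma in ko or wt (0 and 2 at an unadjusted p under 0.05).

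**Figure D4:**
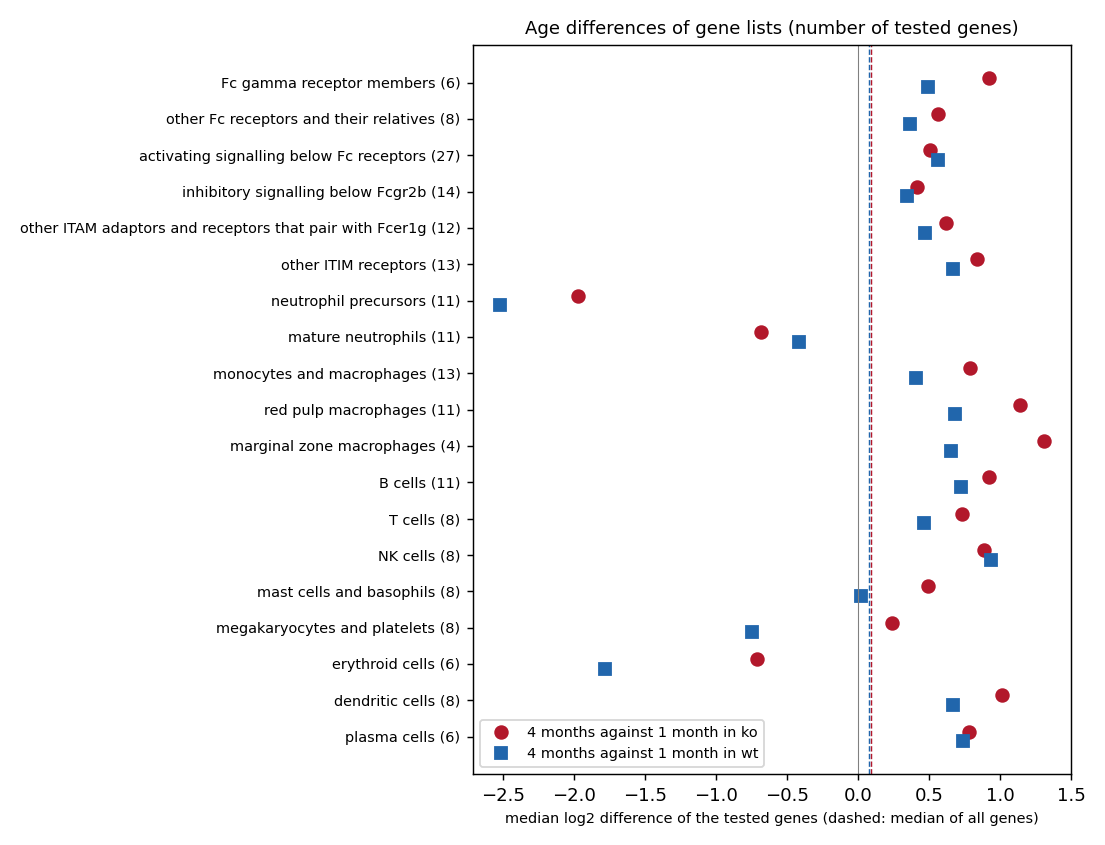
Median log2 difference of the 6 Fc gamma receptor genes and of 18 gene lists at 4 months against 1 month, with ko as red circles and wt as blue squares, 1 probe set per gene; dashed lines mark the medians over all genes. The red pulp macrophage, B cell and receptor lists lie above 0, and the neutrophil precursor list lies at -1.97 in ko and -2.52 in wt.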

How the data were processed

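The authors deposited linear signal intensities, 1 per probe set, and per the submitters' processing notes made them with MAS5. Biotin-labelled total RNA had been hybridised. The array annotation's genome build is not given in the sources used here, and detection calls were not used. Arrays were brought to a common 2% trimmed mean, 500, which the deposited values already had, and log2 was taken after adding 32. Probe sets with a signal of at least 100 in at least 3 arrays were tested, without 64 control probe sets. Of the 45037 others, 34945 had 1 gene symbol, 932 several and 9160 none.

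One model with 4 group means was fitted over the 12 arrays with limma 3.58.1 in R 4.3.3 (lmFit, eBayes with an intensity trend, 8 residual and 8.27 prior degrees of freedom) and tested on simulated data. Tests were 2-sided, with Benjamini-Hochberg adjustment over the 27041 probe sets. A gene was read from its brightest probe set. The design text counts mice, so replicates are animals, and their number limits the precision.

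Replicate numbers were not treated as pairs in the main model. Deviations of same-numbered arrays correlated at -0.201 to 0.211, and 3 arrays per group are too few to show that no pairing was present.

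The members, 6 pathway lists and 14 cell type lists were chosen with earlier results of these data known. Within pathway lists the rule named, per genotype comparison, up to 4 called genes with the smallest p, and per receptor gene the 3 genes with the highest r. Genes named for age alone were chosen after their values were seen. Some genes belong to more than 1 list. Alternatives were quantile normalization, median centring, offsets of 1 and 64, no filter and one at 200, no trend, the replicate block, the array set as a block, each array set alone, and leaving out each array.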

Additional observations from a re-analysis of the deposited data

Results flagged for a closer look

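For Fcgr1 (1417876_at) the genotype difference had opposite signs at the 2 ages, with all ko arrays above the wt arrays at 4 months and below them at 1 month. The change of the genotype difference, 4 months minus 1 month, was 0.99 (SE 0.27), and limma did not call it (adjusted p = 0.28). Fcgr2b (1435477_s_at) showed the same arrangement, with a change of 0.44 (SE 0.19, limma adjusted p = 0.541). Other probe sets of the 2 genes did not show it in full. In 1436625_at of Fcgr1 the genotypes overlapped at 1 month. The other tested Fcgr2b probe sets overlapped between genotypes at 4 months, and 1455332_x_at was below 0 at both ages (-0.074 at 4 months and -0.050 at 1 month).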

How the results depend on the processing

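No genotype difference was called among the 10 probe sets in most settings: the exceptions were Fcgr1 at 4 months without wt replicate 2, Fcgr2b at 1 month without wt replicate 3 and Fcgr4 over both ages with median centring, each 1 probe set against 0. The age counts were 9 to 10 in ko and 4 to 7 in wt when single arrays were left out, 7 in ko and 4 in wt within the low array set, 4 in wt within the high set, and 5 in wt with quantile normalization. When single arrays were left out, the calls over all probe sets ranged from 161 to 991 at 4 months, 36 to 1590 at 1 month and 407 to 2901 over both ages for genotype, and from 3653 to 6692 in ko and 3492 to 6375 in wt for age. Median centring moved the median of all probe sets at 1 month to 0.122, and with age in ko to -0.0514. The median of the 10 at 1 month was then -0.0294, against -0.19. All 10 stayed called for age in ko there, with a median of 0.844. The replicate block left all 6 counts as they were (0, 0, 0, 0, 10 and 6) and gave an exact permutation p of 0.0938 for the ratios of Fcgr1 (0.40) and Fcgr3 (0.34) to Fcgr2b. With the array set as a block the ratio was 0.35 for Fcgr1 (exact permutation p = 0.0833), 0.21 for Fcgr3 and 0.41 for Fcgr4. Within the low set the 3 ratio differences were 0.086, 0.039 and 0.31 for Fcgr1, Fcgr3 and Fcgr4. With other probe sets, chosen after seeing the data, the Fcgr1 ratio was 0.35 (1435476_a_at), 0.27 (1451941_a_at), 0.30 (1455332_x_at) and 0.29 (1436625_at), the Fcgr3 ratio 0.24 and the Fcgr4 ratio 0.39 (both 1455332_x_at), all with an exact permutation p above 0.05. With 1451941_a_at the Fcgr3 ratio was 0.21 (exact permutation p = 0.03). Leaving out single arrays gave 0.30 to 0.46 for Fcgr1 (exact permutation p = 0.01 to 0.06), 0.27 to 0.43 for Fcgr3 (0.01 to 0.1) and 0.44 to 0.57 for Fcgr4 (0.005 to 0.01). The filter and trend settings do not apply to the ratios, and the high set holds no ko array of 1 month.

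Signs that turned were all of differences that limma did not call. For age in wt, Fcgr1 was at -0.064 with quantile normalization and -0.087 in the high set. In ko against wt at 4 months the low set gave -0.0051 for Fcer1g, -0.036 for 1435476_a_at and -0.16 for 1451941_a_at, and the high set 0.090 for 1455332_x_at. At 1 month the array set block gave -0.089 for Fcgr3, median centring 0.029 for Fcer1g and 0.11 for 1455332_x_at, and the low set 0.098 for Fcer1g. Over both ages median centring gave 0.058 for 1451941_a_at and 0.030 for 1455332_x_at, and the low set -0.058 for Fcgrt. For the change of the genotype difference with age the low set gave -0.071 for Fcgr4, -0.10 for Fcer1g and 0.010 for 1455332_x_at, and the array set block 0.18 for 1455332_x_at. Leaving out single arrays gave -0.053 to 0.27 for Fcgr1 with age in wt. It gave -0.022 to 0.066 for 1435476_a_at, -0.15 to 0.25 for 1451941_a_at and -0.18 to 0.069 for 1455332_x_at at 4 months, and -0.30 to 0.13 for 1455332_x_at at 1 month. Over both ages it gave -0.15 to 0.044 for 1451941_a_at, -0.19 to 0.029 for 1455332_x_at and -0.013 to 0.15 for Fcgrt, and -0.21 to 0.23 for the change with age of 1455332_x_at. The cause was not tested.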

Other observations

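Of the genes that RefSeq places between Fcgr3 and Fcer1g on chromosome 1, 4 were tested here: Cfap126, Sdhc, Pcp4l1 and Tomm40l. With age only Pcp4l1 was called among these 4, higher in ko (0.78, limma adjusted p = 0.0398), where 15.6% of all genes were called higher. In wt none was called (Pcp4l1 at 0.27, limma adjusted p = 0.488), where 12.5% of all genes were called higher and 11.5% lower. The median log2 difference of these 4 genes at 4 months against 1 month was -0.041 in ko and -0.0445 in wt. The 4 receptor genes on either side of them were at 0.69 to 1.26 in ko and 0.29 to 0.82 in wt. Of those, Fcer1g was not called in wt (0.29, limma adjusted p = 0.165). Sdhc, a subunit of succinate dehydrogenase, was at -0.25 in ko (limma adjusted p = 0.333) and -0.046 in wt (limma adjusted p = 0.879).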
